A study of Mus musculus with 10 samples.

Results

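Regions marked by H3K27me3 that lie outside coding genes and outside their promoters were examined in fetal liver long-term hematopoietic stem cells (LT-HSCs). Peaks of replicates 1 and 2 of both genotypes were merged where they shared at least 1 bp, which gave 6927 nuclear regions. The regions described here were chosen by peak presence and by the gene annotation. A region had to hold peaks of at least 2 of the 4 libraries, to be under 12000 bp wide, and to overlap no protein-coding gene body and no coding promoter (from 5 kb before a GRCm38 transcription start site, TSS, to 100 bp after it). There were 875 such regions out of 6927, covering 4.56 Mb, of which 148 overlapped the promoter of a noncoding RNA and 727 did not. The same window from 5 kb before the TSS defined noncoding RNA promoters. Of the 148, 111 overlapped the body of a noncoding RNA gene. Because presence of a peak chose the regions, the number of libraries with a peak is given as a description and not as a finding.

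The libraries came from CUT&Tag, in which a transposase is directed by an antibody to a chromatin protein and the released fragments are sequenced. The cells, LSK CD48-CD150+, were sorted at E14.5, and each genotype, IκBα WT (wild type) and IκBα KO (knockout), had 3 libraries. The knockout is a germline loss of Nfkbia, the gene for the NF-κB inhibitor IκBα, so every cell of the embryo lacked it, and the labels name no treatment. Each library held between 1047 and 6013 peaks. Read length was 75 bp in replicates 1 and 2 and 50 bp in replicate 3 of both genotypes. The labels do not tie the libraries to single embryos or litters, so that the p-values below measure the spread between these libraries. For H3K27me3 a figure caption of the paper names 2 independent experiments, and its reporting summary names 3 independent replicates. Whether all libraries of a genotype are independent thus cannot be told. The 4 CUT&Tag samples for IκBα itself were not analysed here.

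H3K27me3 is written by Polycomb repressive complex 2 (PRC2), with EZH2 or EZH1 as its catalytic subunit, and is found at silent genes, above all at the transcription factors and signaling genes of other lineages. In mammals PRC2 is recruited largely to CpG-rich DNA that is unmethylated and not transcribed, and the mark then spreads to the neighbouring nucleosomes. Outside coding promoters it is found at promoters of long noncoding RNAs and microRNAs, at distal regulatory elements held in a poised state, and as shoulders of broad Polycomb domains. As a check of the sorted cells, none of 14 genes active in blood stem cells, among them Kit, Procr, Runx1, Gata2 and Mecom, had a promoter peak in any of the 6 libraries. Of 8 genes of other cells, Col1a1 and Epcam had one in 4 libraries, Cd3e in 1 and the remaining 5 in none. Among all 21938 coding genes, 2960 (13.5%) carried a region of at least 2 libraries of replicates 1 and 2 at their promoter. The absence of peaks at 14 genes is therefore a weak check of the cells. Nfkbia carried a peak over its promoter or gene body in 0 of 6 libraries, so the peaks gave no check of the genotype.

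The regions were richer in CpG dinucleotides than other noncoding DNA. The windows of 250 bp with the most CpG are shown for 6 of the regions with the highest signal, with 3 at noncoding RNA promoters and 3 away from them, and for each of these groups the pair with the most CpG and the one with the least. Sequences are those of the plus strand of GRCm38.p6, and capitals mark CG dinucleotides. Named by the noncoding RNA or by the nearest coding gene, they read:
region at Gm45336, chr8:92460390-92460639: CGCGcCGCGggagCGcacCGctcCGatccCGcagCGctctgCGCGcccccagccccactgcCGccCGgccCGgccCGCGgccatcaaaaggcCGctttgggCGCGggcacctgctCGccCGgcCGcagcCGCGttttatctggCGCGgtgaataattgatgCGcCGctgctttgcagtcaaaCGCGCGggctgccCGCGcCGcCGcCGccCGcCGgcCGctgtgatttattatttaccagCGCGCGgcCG
region at D930007P13Rik, chr15:103146750-103146999: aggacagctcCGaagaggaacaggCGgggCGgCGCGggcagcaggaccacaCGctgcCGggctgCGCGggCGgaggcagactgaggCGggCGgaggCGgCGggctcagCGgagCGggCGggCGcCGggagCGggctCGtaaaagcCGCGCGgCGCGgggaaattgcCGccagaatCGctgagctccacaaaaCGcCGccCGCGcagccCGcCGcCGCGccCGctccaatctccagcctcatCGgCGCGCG
region at Gm24612, chr11:82602865-82603114: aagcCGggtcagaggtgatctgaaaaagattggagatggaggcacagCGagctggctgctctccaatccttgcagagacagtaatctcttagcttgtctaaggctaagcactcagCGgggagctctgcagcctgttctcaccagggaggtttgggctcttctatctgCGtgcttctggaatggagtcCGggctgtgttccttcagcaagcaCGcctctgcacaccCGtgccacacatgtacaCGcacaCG
region near Wnt7b, chr15:85625900-85626149: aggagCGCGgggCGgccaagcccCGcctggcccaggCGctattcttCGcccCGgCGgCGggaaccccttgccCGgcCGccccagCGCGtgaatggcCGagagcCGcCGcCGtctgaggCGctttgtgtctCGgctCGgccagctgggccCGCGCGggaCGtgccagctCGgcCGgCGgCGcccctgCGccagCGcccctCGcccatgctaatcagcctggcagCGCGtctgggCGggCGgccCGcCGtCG
region near Calcoco1, chr15:102746870-102747119: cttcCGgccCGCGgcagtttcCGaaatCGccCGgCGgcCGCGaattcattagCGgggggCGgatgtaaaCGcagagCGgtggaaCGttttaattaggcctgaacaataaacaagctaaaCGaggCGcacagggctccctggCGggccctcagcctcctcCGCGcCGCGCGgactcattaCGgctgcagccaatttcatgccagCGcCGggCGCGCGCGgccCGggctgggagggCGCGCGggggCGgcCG
region near Irs2, chr8:10960287-10960536: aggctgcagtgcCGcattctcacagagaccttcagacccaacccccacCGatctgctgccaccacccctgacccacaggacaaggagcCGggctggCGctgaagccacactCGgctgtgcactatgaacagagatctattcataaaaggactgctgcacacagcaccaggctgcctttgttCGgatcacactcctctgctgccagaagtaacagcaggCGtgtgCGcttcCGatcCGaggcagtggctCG

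The window at Gm45336, a noncoding RNA 98694 bp from Irx5, held 43 CpG in 250 bp with 73.6% GC, and the one at D930007P13Rik held 41. The region 37283 bp from Wnt7b, a Wnt ligand, held 38 although no promoter of either kind lies there, and the one 20084 bp from Calcoco1 held 35. At the other end, the best windows of Gm24612 and of the region near Irs2 held 9 and 11 CpG, so that a strong H3K27me3 signal was also present where no dense CpG cluster was found. Over all 875 regions the median was 14.2 CpG per kb, against 6.01 per kb in 292880 noncoding tiles of 4657 bp that held no peak and 24.9 per kb in the 2562 regions of the same width limit at coding promoters. The density exceeded the median tile in 855 of 875 regions (97.7%). The 641 regions inside coding genes but away from promoters had a median of 15.4, close to the noncoding ones. GC content was 48.6% in the noncoding regions and 40.2% in the tiles, and repeats made up 17.8% of a typical region and 32.5% of a typical tile. These are descriptions over regions of shared libraries. GC content moved with CpG density, and its part in the difference was not tested.

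**Figure D1:**
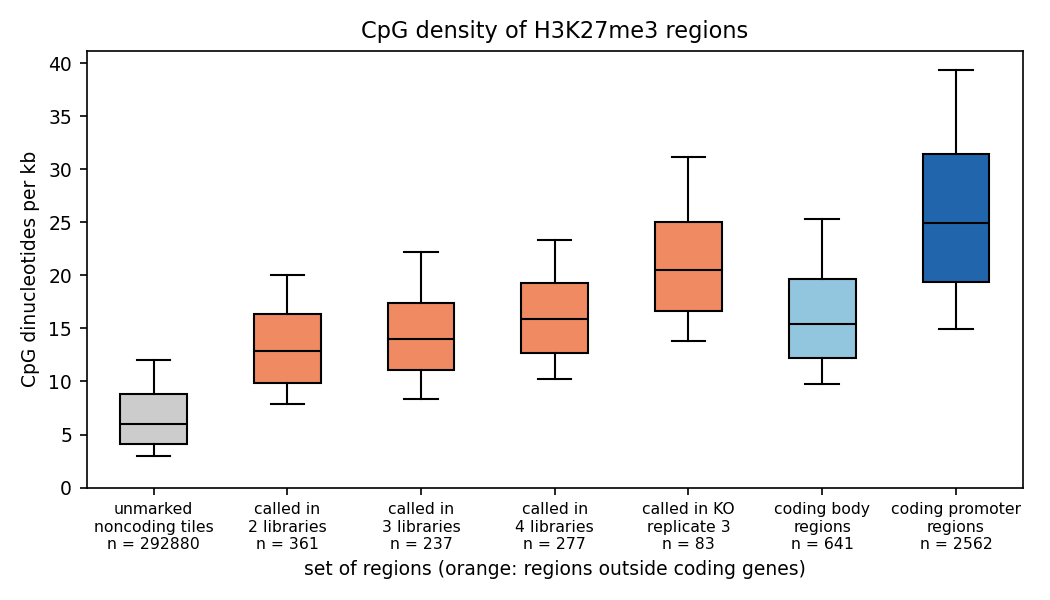
CpG dinucleotides per kb (vertical axis) in noncoding tiles without a peak, in regions outside coding genes grouped by the number of libraries that called them or by a peak in KO replicate 3, and in regions of coding bodies and coding promoters. Boxes span the quartiles with the median as a line, and whiskers reach the 10th and 90th percentiles; the medians run from 6.01 in tiles over 12.9, 14.0 and 15.9 in regions of 2, 3 and 4 libraries to 24.9 at coding promoters.

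A CpG island window (500 bp with at least 55% GC and an observed to expected CpG ratio of at least 0.65) was present in 171 of 875 regions (19.5%), in 1.28% of the tiles and in 80.5% of the coding promoter regions. Regions inside coding genes but away from promoters were close to the noncoding ones, with such a window in 153 of 641. Among regions of 4000 to 6000 bp, where width hardly differs, the shares were 19.3% in the noncoding regions and 79.0% at coding promoters. Noncoding RNA promoters held such a window in 49 of 148 cases (33.1%) and the other regions in 122 of 727 (16.8%). The share was 6.65% in regions called in 2 libraries, 17.7% in those of 3 and 37.9% in those of 4. Their median widths were 3829, 4702 and 6375 bp, and among regions of 4000 to 6000 bp alone the shares were 6.30%, 20.4% and 35.1%.

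The replicate 3 libraries were not used to choose the regions and allowed a look at how they recur. WT replicate 3 called 28 of 875 (3.2%) and KO replicate 3 called 83 (9.49%), against 15.1% and 35.8% of all 4078 regions under 12000 bp. Coding promoter regions were called again in 21.7% and 50.9% of cases, and regions in coding gene bodies, which recurred about as rarely as the noncoding ones, in 4.84% and 11.2%. Among regions called in all 4 libraries, KO replicate 3 called 63 of 277 noncoding (22.7%), 52 of 198 coding body (26.3%) and 1068 of 1556 coding promoter regions (68.6%). Regions with a CpG island window recurred more often than those without, which is given as a description over regions. Of the 171 regions with an island window, KO replicate 3 called 58 (33.9%) and WT replicate 3 called 24 (14%). Of the 704 without, they called 25 (3.55%) and 4 (0.568%). Within regions of all 4 libraries, KO replicate 3 called 46 of 105 with an island window (43.8%) and 17 of 172 without (9.88%), at median signals of 1.23 and 1.09 in units of the median peak of a library. Coding promoter regions of all 4 libraries were called by KO replicate 3 in 73.5% of cases with an island window and in 28.1% without. Their median signals were 1.42 and 1.09. Coding body regions of all 4 libraries showed the same contrast, at 55.4% with and 5.22% without, with median signals of 1.36 and 1.1. Replicate 3 had shorter reads and fewer peaks in both genotypes, and the effects of read length, depth and library preparation cannot be told apart.

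Fragment coverage was compared within each library between all peaks outside coding genes and promoters, members of the 875 regions or not, and peaks at coding promoters. The maximum signal of a typical peak outside coding genes was 8 fragments in replicates 1 and 2 of both genotypes and 10 at coding promoters. In replicate 3 it was 6 against 6 in WT and 9 against 10 in KO. Peaks in coding gene bodies had the same median maximum as those outside coding genes in each of the 6 libraries. On the log2 scale the difference averaged -0.24 ± 0.14 (SD, n = 6 libraries) and was negative in 5 of 6, with the remaining library at 0 (exact sign-flip test, two-sided, p = 0.0625, adjusted over 2 measures 0.0625). Mean coverage, total signal over width, was lower outside coding genes in 6 of 6 libraries by -0.15 ± 0.07 on the log2 scale (exact sign-flip test, p = 0.03125, the smallest that 6 libraries allow, adjusted p = 0.0625). Neither measure passed 0.05 after adjustment. With a promoter of 1 kb upstream both did, at an adjusted p of 0.03125 in the exact sign-flip test.

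Of all nuclear peaks under 12000 bp, those outside coding genes and promoters made up 19.7%, 26.2% and 8.24% in WT replicates 1 to 3 and 21.3%, 23.5% and 10.7% in KO replicates 1 to 3. The exact 95% binomial interval, which covers counting error only, ran from 25.1% to 27.3% in WT replicate 2 and from 6.64% to 10.1% in WT replicate 3. Both replicate 3 libraries lay below all others. The means were 18.04 ± 9.08% in WT and 18.5 ± 6.85% in KO (SD, n = 3 each), a difference of 0.46 percentage points that was far smaller than the spread between replicates (exact permutation test, two-sided, p = 1; 3 against 3 cannot go below 0.1). Libraries with more peaks had a larger share outside coding genes. When only the strongest 1044 peaks of each library were kept, the shares were 11.4%, 14.46% and 8.24% in WT and 11.8%, 10.7% and 7.57% in KO, so that the gap between replicate 3 and the others narrowed while replicate 3 stayed lowest, and the genotype difference turned to -1.34 percentage points (exact permutation test, p = 0.5). Its sign also turned without WT replicate 3 (-4.44), KO replicate 1 (-0.92) or KO replicate 2 (-2.06).

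**Figure D2:**
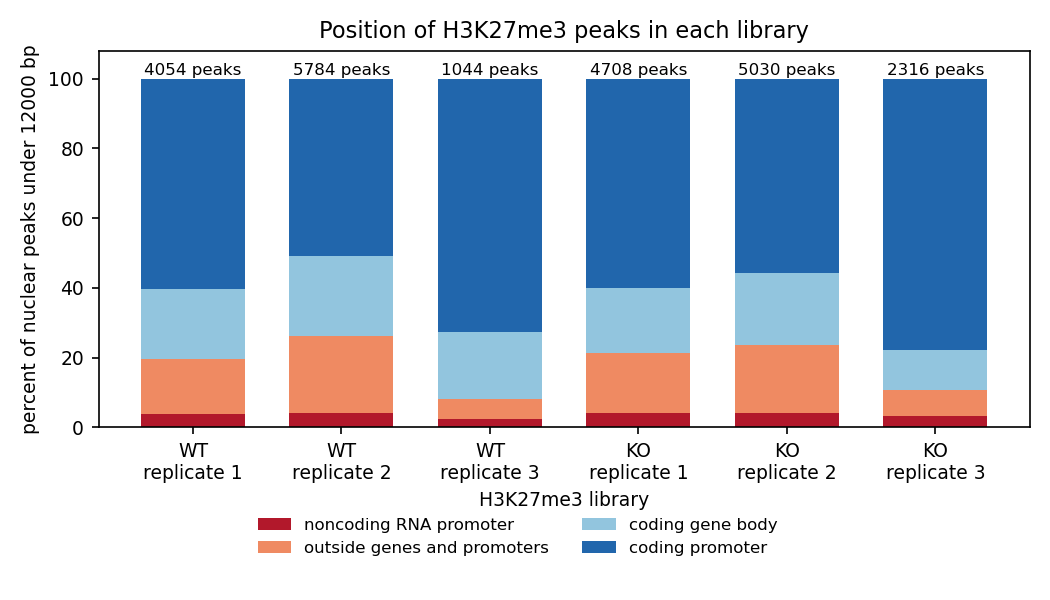
Percent of nuclear H3K27me3 peaks under 12000 bp (vertical axis) that fall at noncoding RNA promoters, elsewhere outside coding genes, in coding gene bodies and at coding promoters, as stacked bars for the 6 libraries, with the number of peaks above each bar. The noncoding classes together make up 19.7% to 26.2% in replicates 1 and 2 and 8.24% and 10.7% in the replicate 3 libraries of WT and KO.

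Next, the position of the regions relative to coding genes was determined. The nearest coding TSS lay at a median of 36134 bp, with 49848 bp for regions at noncoding RNA promoters and 35362 bp for the others. Of the 875 regions, 251 (28.7%) were within 20 kb of a TSS and 191 (21.8%) were over 100 kb away, whereas 14.1% and 55.9% of the tiles without a peak were. The regions farthest from a TSS were at chr10:92161572-92165741, 550737 bp from Nedd1, at chr3:149517321-149520152, 526766 bp from Adgrl2, and at chr12:27996938-28001012, 515702 bp from Dcdc2c. The first of them was the promoter of Rmst, a long noncoding RNA of neural progenitors. Its total signal, not scaled to depth, was 6670 in WT replicate 1, 13397 in KO replicate 1 and 11199 in KO replicate 2, with no peak in the other 3 libraries. Such single distal regions were of low signal, at 0.771, 0.634 and 0.746 of the median peak.

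**Figure D3:**
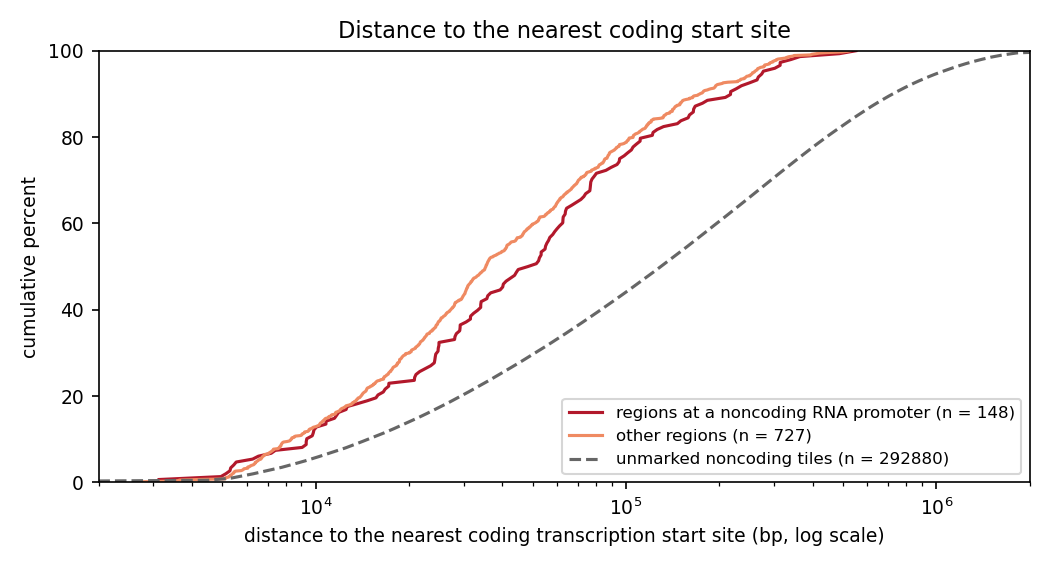
Cumulative percent of regions (vertical axis) by distance in bp to the nearest coding TSS (horizontal axis, log scale) for 148 regions at noncoding RNA promoters, 727 other regions and 292880 noncoding tiles without a peak. Both region curves lie to the left of the tiles, with medians of 49848 and 35362 bp.

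The coding gene next to a region was often marked itself. Its promoter carried a region of at least 2 libraries in 458 of 875 cases (52.3%), while 2960 of 21938 coding genes (13.5%) were marked in all and 23.8% of tiles had a marked gene as their nearest. For regions in coding gene bodies the share was higher, at 466 of 641 (72.7%). The share was highest within 20 kb and above that of tiles in each band of distance. It was 65.4% against 13.4% between 5 and 10 kb, 67.9% against 16.0% between 10 and 20 kb, 49.6% against 19.6% between 20 and 50 kb, and 41.4% against 27.6% beyond 100 kb. A region of 12000 bp or more, the width of a broad Polycomb domain, lay within 20 kb of 183 of the 875 (20.9%), of 17.9% of the coding body regions and of 4.88% of the coding promoter regions. Another of the 875 lay within 20 kb of 392 of them.

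Families of developmental transcription factors (Hox, Pax, Sox, T-box, forkhead, LIM and other homeobox, GATA and bHLH genes) were looked up as neighbours. They comprise 284 genes, 1.3% of coding genes, and were the nearest gene of 142 of 875 regions (16.2%), compared with 2.45% of tiles. LIM homeobox genes, which pattern the neural tube and the early kidney, had 18 regions next to 4 genes, and the most frequent single gene was Lhx5, with 10 regions between 6686 and 69952 bp away. Sox genes had 11 regions (Sox1, Sox8, Sox9 and Sox14), T-box genes 10 and forkhead genes 9. Hox genes had 9 regions next to 5 of 39 genes. bHLH factors, among them Neurog1, Olig2, Myod1, Hand1 and Twist1, had 17 regions next to 14 genes. Of the 284 genes, 219 were marked at their own promoter. The family lists were drawn up with results of these data known.

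Neighbours outside these families also had several regions. They included the transcription factors Nr2f2 and Sall1, with 4 regions each. Irs2, an adaptor of the insulin receptor, had 8, Tle3, a Groucho-type corepressor, had 7, and Fzd10, a Wnt receptor, had 5. Csf3r, the receptor for granulocyte colony-stimulating factor and active in myeloid cells, was not marked at its promoter and had 6 regions between 81691 and 240489 bp away. In all, 551 genes were nearest to a region and 370 of them to only 1. Regions were unevenly spread over chromosomes: they made up 37.7% of regions under 12000 bp on chromosome 13 and 35.1% on chromosome 5, which alone held 114, compared with 875 of 4078 over the genome. The share was 6.06% on chromosome X, with 2 regions, and at most 25.8% on the other autosomes. Some stretches held many regions. On chromosome 5, 17 lay between 115202102 and 119962173 and another 17 between 120236028 and 120457833, among them the 10 next to Lhx5. A stretch of chromosome 8 from 10824466 to 14000274 held 24, 8 of them nearest to Irs2. WT replicate 2 called 23 of these 24, WT replicate 1 called 16, KO replicate 1 called 18, KO replicate 2 called 15 and both replicate 3 libraries called 0. Over all 875 regions these 4 libraries called 86.7%, 54.97%, 70.4% and 78.3%, in the same order. A CpG island window was found in 1 of the 24.

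Noncoding RNA genes marked at their promoters came next. The 148 regions covered the promoters of 167 of 16239 annotated noncoding RNA genes (1.03%), and 120 of these were lincRNAs. A further 830 genes (5.11%) were covered by regions that touch a coding gene or are broader, and 308 of those were antisense transcripts, which share a locus with a coding gene. Among 28 annotated lncRNAs of developmental loci, most of them beside transcription factor genes, such as Hotair and Sox2ot, 25 were covered by these other regions, 2 (Tbx3os1 and Rmst) by one of the 148, and 1 (Hoxb5os) by neither. Of 33 microRNA genes of neurons, muscle and epithelium, 2 were covered by one of the 148 (Mir124a-1hg and Mir9-2) and 15 by others. No region covered 26 of 27 noncoding RNAs used in blood or in all cells, among them Malat1, Gas5 and Mir142, or 10 of 11 imprinted ones, which is near the share of all noncoding RNA genes without one. The exception in blood was Dleu2, the host transcript of a microRNA cluster often deleted in leukemia, with a total signal of 12379 in WT replicate 2, 20072 in KO replicate 1, 8079 in KO replicate 2 and none in the other 3 libraries.

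Of 1005 microRNA hairpins in the RefSeq table, 6 lay within one of the 875 regions and 55 within another region of at least 2 libraries. Mature sequences from RefSeq (GRCm38.p6) of the 4 described here are shown, with capitals for the seed (bases 2 to 8), which pairs with target messages:
mmu-miR-9-5p: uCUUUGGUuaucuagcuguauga
mmu-miR-129-5p: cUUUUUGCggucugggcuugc
mmu-miR-7a-5p: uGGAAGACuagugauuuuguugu
mmu-miR-7230-5p: aGACUGCUguuucucugaguggc

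None of these 4 seeds was shared with another. The first 3 come from the hairpins of Mir9-2, Mir129-1 and Mir7-2 on the plus strand and the last from that of Mir7230, at chr5:113337590-113337645 on the minus strand. The region over Mir9-2, at chr13:83733209-83739862, which encodes a microRNA of neural progenitors, had a total signal of 7432 in WT replicate 1, 9813 in WT replicate 2 and 18796 in KO replicate 1, and no peak elsewhere. Mir129-1 had 13775 and 18204 in WT against 31240 and 8839 in KO, so that the genotypes overlapped. The region over Mir7-2, a microRNA of neuroendocrine cells, had 6968, 7038 and 4255 across the WT replicates, against 21618 and 20759 for KO replicates 1 and 2 and no peak for KO replicate 3. Mir124a-1, a neuronal microRNA whose hairpin was not in the table, was marked over its host gene in all 6 libraries, at 35397, 29836 and 5251 in WT against 40523, 8627 and 14839 in KO. The 2 lowest of these 6 values were in different genotypes. Such totals are not scaled to depth, so values of different libraries are not directly comparable. The median peak of a library had a total of 4303 in WT replicate 3, 10398 in KO replicate 3 and 12361.5 to 13972 in replicates 1 and 2.

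Among regions at noncoding RNA promoters that all 4 libraries called, the strongest was that of CAAA01189291.1 at chr17:48092813-48101816. Its signal, in units of the median peak of each library, reached 2.06 and 2.57 for WT replicates 1 and 2, against 3.06 and 1.88 for KO. WT replicate 3 had no peak and KO replicate 3 had 2.43. D930007P13Rik, 4952 bp from Smug1, reached 1.77 and 2.66 in WT against 1.58 and 2.95 in KO. Gm13344 lies 9325 bp from Ptf1a, a bHLH factor of pancreas and cerebellum, and had 1.97 and 2.67 in WT against 2.39 and 1.47 in KO. Gm16063 and Tbx3os1, beside the T-box gene Tbx3, had 1.44 and 1.87 in WT against 2.08 and 2.13 in KO, the only one of these 10 where both KO values exceeded both WT values. At 1700065J18Rik, 13640 bp from Sertad4, both WT values (2.83 and 2.07) exceeded both KO values (1.57 and 1.6). The same held for Mir7230, with 1.78 and 2.68 against 1.66 and 1.47. In replicate 3 both regions had the opposite order, with no peak in WT and 1.42 and 1.05 in KO.

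Away from promoters of any kind, the highest signal was at chr15:102742262-102752713, 20084 bp from Calcoco1 and 151994 bp from the nearest region at a coding promoter. WT values there were 2.49 and 3.58, KO values 3.01 and 2.90, and KO replicate 3 had 1.5. A neighbouring region at chr15:102691140-102698622 was called in all 6 libraries, at 1.36, 2.20 and 0.793 in WT against 1.70, 1.85 and 1.40 in KO. The region 109598 bp from Lhx1 had 2.34 and 3.28 in WT against 3.10 and 3.08 in KO, and that 35793 bp from Uncx, another homeobox gene, 2.37 and 3.26 in WT against 1.91 and 2.17 in KO. The region 17317 bp from H6pd, a gene of sugar metabolism in the endoplasmic reticulum that was not marked itself, was called in all 6, with 2.64, 3.13 and 0.939 in WT and 2.79, 2.91 and 1.62 in KO. In total 19 of 875 regions (2.17%) had a peak in both replicate 3 libraries, against 2.96% of coding body and 18.2% of coding promoter regions. One of them, at the noncoding RNA Gm27901, lay 10802 bp from Cdkn1c, a cell cycle inhibitor known for its role in stem cell quiescence, and had 1.02, 1.92 and 0.863 in WT against 2.28, 1.64 and 0.949 in KO. The promoter of Cdkn1c itself was not marked.

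**Figure D4:**
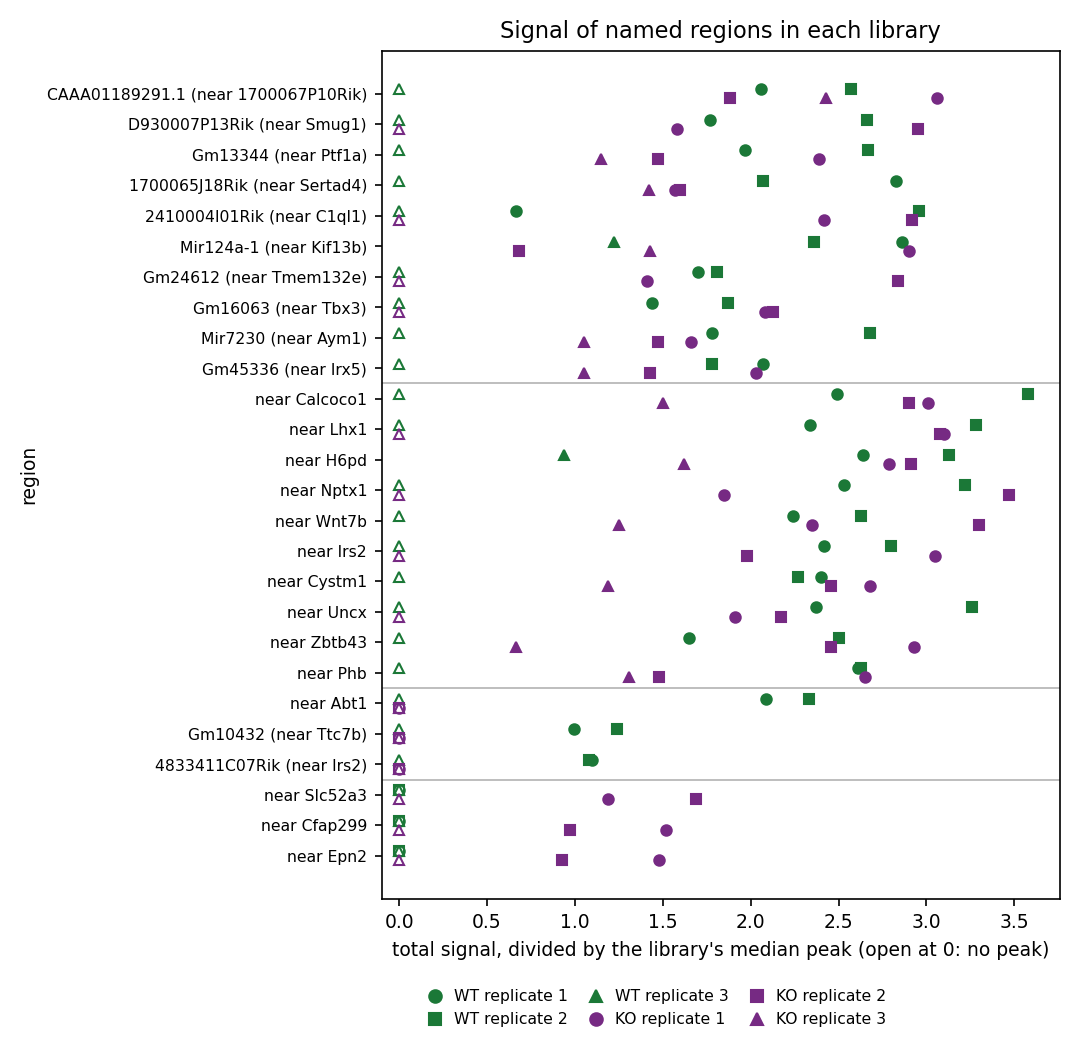
Total signal divided by the median peak of the library (horizontal axis) for 10 regions at noncoding RNA promoters, 10 away from them, and 3 each called only in the WT or only in the KO libraries of replicates 1 and 2, from top to bottom. Green is WT and purple is KO, the shape gives the replicate, and open symbols at 0 are libraries without a peak; most replicate 3 symbols lie at 0.

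At the width limit, the widest regions kept were 11882 bp near Chchd3 and 11773 bp near Nptx1, with signals of 1.74 and 2.69, and the narrowest left out were 12149 bp at 9530059O14Rik and 12181 bp near Rmi1, with 3.07 and 1.43. At the limit on libraries, the 361 regions of 2 libraries had a median signal of 0.721 and the 915 noncoding regions of a single library had 0.635. KO replicate 3 called 6 of the former and 8 of the latter. Regions with 3 and 4 libraries numbered 237 and 277.

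The last question was whether the mark at these regions differed between genotypes. Peaks in both WT libraries of replicates 1 and 2 and in neither KO library were found at 38 of 875 regions (4.34%), against 2.77% of all regions under 12000 bp. The reverse was found at 51 (5.83%), against 4.83%. Regions in coding gene bodies had shares close to the noncoding ones, at 4.52% for WT alone and 5.62% for KO alone. The rule counted libraries whatever their genotype, and regions of 2 libraries also paired the genotypes. Of the 361, 39.6% were called in WT replicate 2 and KO replicate 2 (28.1% of other regions of 2 libraries), 22.4% in WT replicate 2 and KO replicate 1 (26.9%), 7.76% in WT replicate 1 and KO replicate 2 (6.53%), and 5.54% in WT replicate 1 and KO replicate 1 (7.78%). Regions of WT alone made up 10.5% of the 361 (10.4% of the others) and regions of KO alone 14.1% (20.3%), so that the share of KO alone was above that of other regions only when counted over all 875. The most frequent pairings in both sets held WT replicate 2, the library with the most peaks. Of the 38, WT replicate 3 called 0 and KO replicate 3 called 1, and of the 51 both called 0. At coding promoters, WT replicate 3 called 2 and KO replicate 3 called 4 of 46 regions of WT alone, and they called 4 and 17 of 110 regions of KO alone.

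The strongest region of WT alone was at chr13:23405845-23413069, 10797 bp from Abt1, with a total signal of 25826 and 29461 in WT replicates 1 and 2. It had no peak in WT replicate 3 or in any KO library, and the nearest region at a coding promoter was 576374 bp away. It was followed by the noncoding RNAs Gm10432 (12326 and 15690) and 4833411C07Rik (13580 and 13593). The strongest of KO alone were near Slc52a3, a riboflavin transporter (16586 and 21300 in KO replicates 1 and 2), near Cfap299 (21276 and 12265) and near Epn2 (20668 and 11677). None of these 6 regions had a peak in a replicate 3 library. Of 20 genes looked up as neighbours, those of the retinoic acid pathway and Nfkbia, Rxrg, a retinoid X receptor, and Crabp1, a retinoic acid binding protein, each had 1 region. That 22805 bp from Rxrg had 10512 for WT replicate 1, 11333 for WT replicate 2 and no peak in the other 4 libraries, and that 9585 bp from Crabp1 had 7124 in WT replicate 1 and 10644 in KO replicate 2 only.

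At the 277 regions called in all 4 libraries, total signal was compared within one limma fit of all 2557 such regions of the genome, after centring each library on its median. No region differed at an adjusted p under 0.05 (limma with Benjamini-Hochberg adjustment over 2557 regions), neither among the 277 nor among all others (0%), and the smallest adjusted p of a noncoding region was 0.984. At an unadjusted p under 0.05, 6 of the 277 (2.17%) were higher in KO and 13 (4.69%) lower, against 1.76% and 2.89% of all regions. With the maximum signal in place of the total these counts were 9 and 1 (109 and 22 over all 2557 regions), and with a replicate block 10 and 18 (63 and 88 over all). With mean coverage they were 6 and 21, against 56 and 65 over all regions. The balance thus differed between measures. The median log2 difference, KO minus WT, was -0.04 over the 277 regions, -0.01 over all regions, 0.02 at coding promoters and -0.08 in coding gene bodies. It was above 0 at 126 of the 277 (45.5%), at 49.0% of all regions and at 38.4% of those in coding gene bodies. The 95% interval of a single region reached 0.88 to either side on the log2 scale (median half-width) before any adjustment for the number of regions. From the 10th to the 90th percentile the log2 differences ran from -0.654 to 0.545 over the 277 and from -0.539 to 0.505 over all regions. With intervals this wide, a count of 0 does not show that single regions were alike. In such bulk samples a mark in fewer cells and less mark per cell cannot be told apart.

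The region of the 277 with the smallest unadjusted p was that of Mir7-2 at chr7:78880507-78888659, with 6968 and 7038 in WT against 21618 and 20759 in KO. Its log2 difference was 1.48 ± 0.33 (SE, limma adjusted p = 0.984), and in replicate 3 the order was the opposite, with a peak in WT and none in KO. A region at chr3:35337837-35344549, 409557 bp from Atp11b, had 7356 and 6832 in WT against 17049 and 19142 in KO, and one near Tent4a had 7267 and 9259 in WT against 16290 and 18424 in KO. On the other side were regions near Adra2c, an adrenergic receptor gene, with 17141 and 27670 in WT against 7967 and 9434 in KO, near Gm9747 with 23136 and 26804 against 7068 and 11409, and near H2-T3, a nonclassical MHC gene, with 24543 and 33175 against 14598 and 12921. The groups did not overlap at any of these 6, which were picked by their p, and each had an adjusted p of 0.984 or 0.989.

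**Figure D5:**
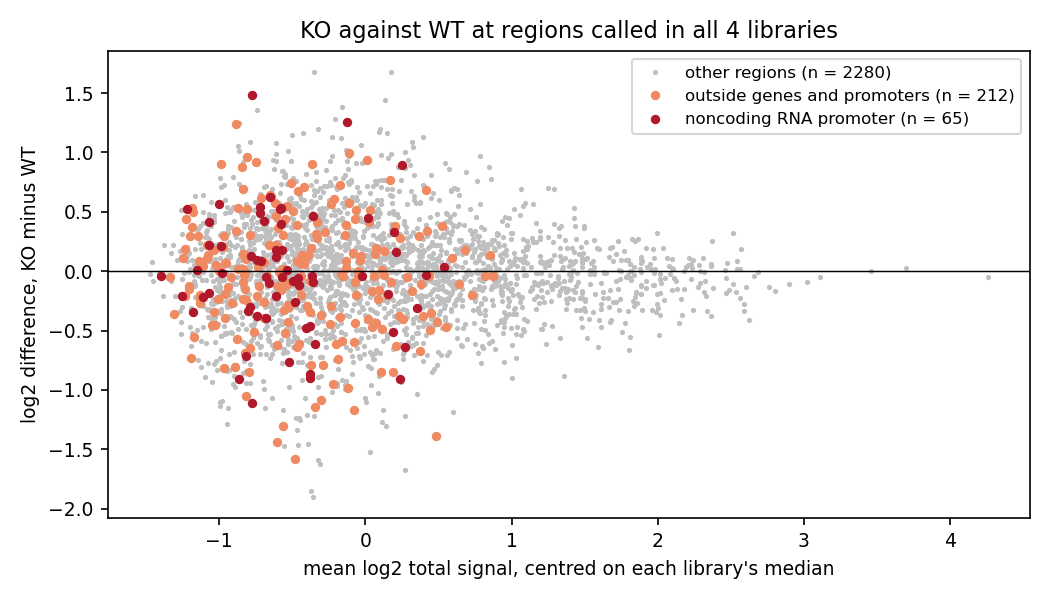
Log2 difference in total signal, KO minus WT (vertical axis), against the mean log2 signal centred on each library's median (horizontal axis), for the 2557 regions called in all 4 libraries of replicates 1 and 2. Noncoding regions (orange and red, 277) lie at low to middle signal and spread to both sides of 0, with a median of -0.04, within the spread of the other regions in grey.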

How the data were processed

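The authors trimmed reads (Trim Galore 0.6.6), aligned them to GRCm38 (Bowtie2 2.4.4), removed duplicates and called peaks per library with SEACR 1.3 in stringent mode, keeping the top 0.5% of blocks. The deposited signal values are the summed and the highest fragment coverage of each peak, not scaled to depth. No peak ended beyond a chromosome of GRCm38.p6. Peaks per library numbered 1047 to 6013, and the read totals were not used here. Gene models were GENCODE M21, and noncoding RNA genes were its lncRNA and small RNA types without pseudogenes. The regions and the gene lists were chosen with earlier results of these data known. Regions were named by fixed ranks: the 10 strongest called in all 4 libraries at noncoding RNA promoters and the 10 elsewhere, the 6 strongest called in all 6 libraries, the 3 strongest of each genotype alone, the 3 farthest from a TSS, those at the width limit, and the 3 smallest limma p in each direction. Mir9-2, Mir129-1, the stretches of chromosomes 5 and 8, Rmst and Dleu2 beyond these came from the lists or were picked after their values were seen. Tiles were consecutive windows without peak, coding gene or coding promoter and with at most 10% N. 

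Library values were compared by exact permutation or sign-flip tests and signal by limma 3.58.1 (R 4.3.3), tested on simulated data first; Python 3.11.15 and scipy 1.17.1 were used otherwise. Same-numbered WT and KO libraries deviated together over the 717 regions called in all 6 libraries (r = 0.27, 0.31 and 0.47 for replicates 1, 2 and 3, across regions), so a replicate block was run as an alternative. WT replicate 2 and KO replicate 1 correlated as highly (r = 0.27), so replicate 3 stood apart more clearly than replicates 1 and 2 from each other.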

Additional observations from a re-analysis of the deposited data

How the results depend on the processing

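The number of regions depended on how many libraries had to call them: 514 with at least 3 libraries, 277 with all 4, and 268 when only peaks above the median signal of each library were used, and that last choice also left 13 regions of WT alone and 18 of KO alone in place of 38 and 51. With the other choices, such as joining peaks up to 1 kb apart, requiring 50% cover, a promoter of 1 kb upstream or no width limit, and without each of the 4 libraries (672 to 817 regions), counts stayed within 1.5 times. The share of regions at noncoding RNA promoters was 16.9% and fell to 12.8% (121 of 942) with a promoter of 1 kb upstream. It was 21.0% with at least 3 libraries and 23.5% with all 4. The genotype difference in the share of peaks outside coding genes was 0.46 percentage points and had no stable sign: it ranged from -4.44 to 4.53 without single libraries, and was -0.54 with replicates 1 and 2 only, -0.014 with a promoter of 1 kb upstream and -1.34 with equal peak numbers, with p between 0.5 and 1 in these exact permutation tests. With a promoter of 1 kb upstream the differences from coding promoter peaks were -0.26 for maximum signal and -0.17 for mean coverage (log2), both then at an adjusted p of 0.03125 in exact sign-flip tests over 6 libraries. The replicate block left the share difference at 0.46 (exact sign-flip test over 3 pairs, p = 1) and the number of regions differing in limma at 0. It was not run for the comparisons of maximum signal and mean coverage with coding promoter peaks, which are made within each library. That number was 0 under all 10 limma alternatives, with 0 to 17 regions higher and 0 to 28 lower in KO at an unadjusted p under 0.05, where the setting with 17 and 28 of 875 gave 96 and 124 of all 4609 regions. Total signal is unscaled, and peaks of 6 to 10 fragments at their highest point limit what a single region can show.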

Other observations

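Noncoding regions of 12000 bp or more, left out above, were examined after the values were seen. There were 59, with a median width of 15514 bp, of which 27 were at noncoding RNA promoters. All 4 libraries called 56 of them, WT replicate 3 called 16 (27.1%) and KO replicate 3 called 32 (54.2%), and 37 (62.7%) held a CpG island window. The strongest was a domain of 66349 bp at chr7:79493690-79560038 over Mir9-3 and its host gene, with 19.3, 22.1 and 2.32 times the median peak across the WT replicates, against 22.9, 20 and 6.58 times in KO. The next was one of 27715 bp over Mir9-1 (7.32, 10.4 and 0.789 in WT, 9.55, 9.05 and 2.05 in KO). The third covered Mir182, Mir183 and Mir96, a cluster of sensory cells, in 20394 bp, at 6.77, 8.32 and 2.45 in WT and 7.71, 7.86 and 5.28 in KO. All 3 Mir9 genes of the annotation thus lay in H3K27me3 regions without a coding gene, and Mir9-2 was the weakest of the 3, at 0.857 of the median peak. A region of 30809 bp 64422 bp from Pax2, a kidney and eye transcription factor, had 4.62 and 8.42 for WT replicates 1 and 2, no peak for WT replicate 3, and 5.64, 6.38 and 1.71 across the KO replicates. The next in signal, 25873 bp wide and 63990 bp from Irs2, had 7.41, 6.32 and 0.781 across the WT replicates. KO replicates 1 and 2 had 5.35 and 4.18 there and KO replicate 3 had no peak, so WT was higher in each replicate.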
